A study of Mus musculus with 2 samples.

Results

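Malat1 and Neat1 are neighbouring long noncoding RNA (lncRNA) genes on mouse chromosome 19, and the data described here are the Arid1b peaks in or within 10 kb of them. Of the 8318 peaks that the authors listed, 20 met this rule, 10 at Malat1 and 10 at Neat1, and no peak was counted for both. The genes were selected on these same values, as genes with many or wide peaks, so the number, width, height and position of these peaks are given as a description and were not tested.

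The study concerns Arid1a, Plagl1 and Hedgehog signalling in tooth root progenitors, per its title, whereas the sample labels name an antibody to Arid1b, the paralogue of Arid1a. Arid1b was immunoprecipitated from the chromatin of primary cells labelled dental mesenchyme, and bound DNA was sequenced (ChIP-seq). They were taken from first mandibular molars, at the apical side, of wild-type C57BL/6 mice aged PN3.5 to PN7.5, and cultured in a-mem medium containing 10% FBS. There was 1 Arid1b library and 1 input library, so there is no replicate check, and how many animals gave cells is not stated in the labels. The input entry lists the same antibody, although its title marks it as input, so its use as chromatin without antibody rests on that title. The series design refers to mice with a conditional Arid1a allele. The genotype given here is that of the sample entries, and this conflict could not be resolved.

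Arid1b is the ARID subunit of some BAF complexes, the SWI/SNF remodellers that slide or evict nucleosomes with the energy of ATP. Malat1 and Neat1 RNAs stay in the nucleus and are abundant in many cell types. Malat1 RNA gathers in nuclear speckles, which are rich in splicing factors, and Neat1 RNA is the scaffold on which paraspeckles are built. Neat1 makes a short and a long RNA from the same start, and both genes are unusual in that the 3′ end of Malat1 and of long Neat1 is made by cleavage of a tRNA-like structure.

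Over the whole list the median peak was 307 bp wide (quartiles 237 and 452), with a median fold over input at its summit of 3.72 (quartiles 3.30 and 4.32). The median pileup at a summit was 38 fragments. The median expected input level was 8.84, and the lowest, taken as the genome background, was 8.68. A peak within 1 kb of a gene end was found at 9 of 10 dental mesenchyme marker genes, against 1 of 6 for dental epithelium (Ambn) and 0 of 4 each for endothelium, blood and immune cells, and nerve and glia. Of all protein-coding genes 22.2% had such a peak, so counts of 0 or 1 in lists this short say little. A peak is not a measure of expression, so this does not test the identity of the cells.

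Malat1 (gene ID 72289) lies at chr19:5795690-5802672 (mm10) and is 6983 bp long. It is on the minus strand, with its start site at 5802672 in the RefSeq promoter table. Neat1 (gene ID 66961) lies at chr19:5824708-5845480 and is 20773 bp long. Its strand is not given in that table. As background, mouse Neat1 is transcribed in the same direction as Malat1, so that the high-coordinate end of each gene is its 5′ end. The genes are 22.04 kb apart.

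The start of Malat1 fell in a gap between Arid1b peaks, and the sequence is shown because a peak boundary runs through it. The RefSeq promoter window of Malat1 (GRCm38.p6, chr19:5802623-5802922, minus strand) runs from 250 bases before the start site to 50 bases from it into the gene. Capitals mark the 181 bases inside a peak, and lower case marks the 119 bases outside every peak.
Malat1 promoter: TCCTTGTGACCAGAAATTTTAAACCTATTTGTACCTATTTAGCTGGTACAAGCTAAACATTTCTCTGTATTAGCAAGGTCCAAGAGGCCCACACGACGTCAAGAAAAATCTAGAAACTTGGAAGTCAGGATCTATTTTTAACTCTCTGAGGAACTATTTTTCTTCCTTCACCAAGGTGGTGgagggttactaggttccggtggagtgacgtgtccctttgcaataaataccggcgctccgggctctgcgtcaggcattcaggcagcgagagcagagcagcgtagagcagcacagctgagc
The upstream peak began 70 bp before the start site and had its summit 262 bp before it. The peak on the gene side ended 167 bp into the gene, with its summit 721 bp from the start, which left 236 bp between the peaks. A start site outside every peak was common among promoters that a peak reached. Of 32851 promoter windows of this length, 2946 (8.97%) shared a base with a peak, and in 1592 of those (54%) the start site lay outside every peak.

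Searched on both strands, 9 motifs had no match in the Malat1 window. They were the AP-1 site TGANTCA, the cyclic AMP response element TGACGTCA, the TEAD site GGAATG, the E-box CACGTG, the GC box GGGCGG, the ETS site CCGGAAG, the CCAAT box (CCAAT), the TATA box TATAAA and the Runx site TGTGGT. None of these letter strings contains another. Among all promoter windows the share with a match ran from 1.79% for the cyclic AMP response element to 37.4% for the CCAAT box, with 35.7% for the GC box. No match says only that these letters are not in this window.

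Arid1b signal lay over most of Malat1 and on both sides of it. The 10 peaks comprised 4 that shared bases with the gene, 3 beyond its 3′ end and 3 upstream of its start. The 4 peaks in the gene covered 4302 of its 6983 bp (61.6%). Coverage was 86.5% in the part of the gene nearer the start and 36.7% in the part nearer the 3′ end, split at the midpoint.

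Upstream of Malat1, the peak next to the start (chr19:5802742-5803599, 858 bp) reached a fold of 4.46 (95% interval 3.30 to 5.90). This exact Poisson interval and those that follow come from the fragment pileup at the summit, 47 in this case, and cover counting error only. A peak of 343 bp began 1235 bp from the gene and reached 3.41 (2.36 to 4.77). The most distant peak, chr19:5810337-5810578, lay 7665 bp from the gene and was the weakest of the 20, at 2.83 (1.96 to 3.96).

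Inside Malat1, the widest peak was chr19:5799588-5801586, with 1999 bp and a fold of 3.87 (2.89 to 5.07). It ranked 87 of 8318 by width, and its fold was above that of 58.2% of the list or equal to it. Between it and the start, a peak of 797 bp reached 3.51 (2.45 to 4.89). On its 3′ side a peak of 551 bp reached 3.08 (2.17 to 4.26). These 3 peaks were separated by gaps of 122 and 181 bp, whereas the next gap, of 1573 bp, was the longest within the gene. Beyond that gap lay chr19:5796328-5797282, 955 bp wide, with the highest fold inside the gene, 4.11 (2.99 to 5.53).

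The strongest of the Malat1 peaks was not in the gene. It lay 405 bp beyond the 3′ end, at chr19:5794502-5795285, with a width of 784 bp and a fold of 4.74 (3.54 to 6.22). Its neighbours there were a peak of 595 bp with 4.31 (3.18 to 5.72) and one of 232 bp, 32 bp from the gene, with 3.60 (2.61 to 4.85). All of these intervals overlap those of the peaks in the gene. Overlap alone does not settle an order, and the flanking peaks were not tested against those in the gene. The small RNA mascRNA, which is cut from the 3′ end of the Malat1 transcript, is annotated as Mascrna at chr19:5795924-5795981. It lay in the 669 bp between the last peak in the gene and the nearest peak beyond it, and no peak covered it.

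**Figure D1:**
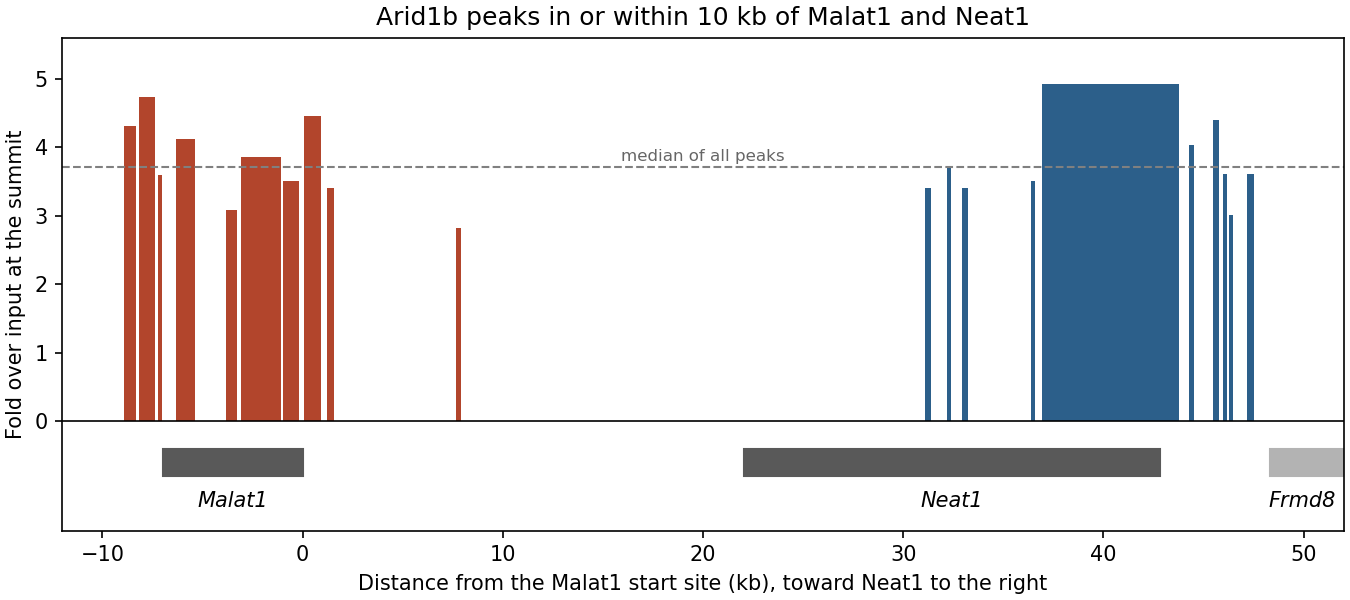
The x axis gives the distance from the Malat1 start site in kb and the y axis the authors' fold over input at the summit. Each bar is a peak drawn to its width (red, Malat1; blue, Neat1), grey blocks are genes (Frmd8 is cut at the edge) and the dashed line is the median fold of all peaks, 3.72. Peaks cover 61.6% of Malat1, with a gap of 1573 bp inside the gene, and the broad bar at the high-coordinate end of Neat1 is 6850 bp wide.

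Neat1 carried its signal at the 5′ end. A peak of 6850 bp, chr19:5839594-5846443, covered 5887 bp of the gene and ran on for 963 bp beyond it. Its summit lay 1279 bp inside the gene and had a fold of 4.93 (3.76 to 6.35) from a pileup of 58, the highest values of the 20 peaks. By width it ranked 3 of 8318. It was the only one of the 20 whose interval excluded the median fold of the list, and its lower bound of 3.76 was close to that median.

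The other 4 peaks in Neat1 were narrow. Toward the 3′ end from the wide peak they had widths of 208, 340, 230 and 294 bp and folds of 3.51, 3.41, 3.72 and 3.41. Their summits lay 6304 to 11514 bp from the 5′ end. In all, the 5 peaks covered 6959 of 20773 bp (33.5%), with 62.0% of the bases covered on the 5′ side of the midpoint and 5.04% on the 3′ side. Of 10 equal parts of the gene, the last 4 on the 3′ side had no peak. The files give no exons or ends of single transcripts, so the wide peak was not placed against the end of the short Neat1 RNA.

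Upstream of Neat1, 5 peaks of 208 to 353 bp lay between 1451 and 4372 bp from the gene. The strongest, chr19:5848160-5848440, reached 4.40 (3.21 to 5.90). The others had folds of 4.03, 3.61, 3.01 and 3.61. Beyond the 3′ end of Neat1 no peak lay within 10 kb of the gene, and the nearest on that side was the upstream Malat1 peak 14.1 kb away.

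**Figure D2:**
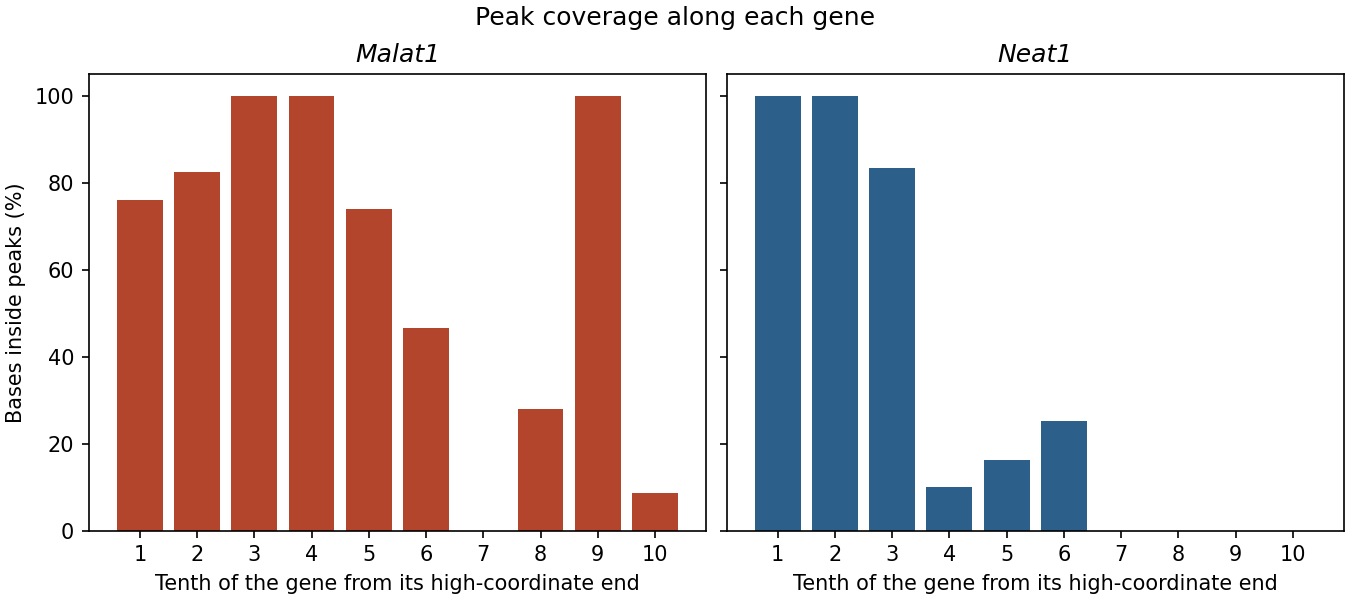
Each bar gives the percentage of bases inside a peak (y axis) in 1 of 10 equal parts of the gene (x axis), counted from the high-coordinate end. In Malat1, 9 of 10 parts held covered bases, and in Neat1 parts 1 and 2 were wholly covered and parts 7 to 10 had none.

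The peaks of the 2 genes lay in different places and had different median widths, while the ranges of width and of fold overlapped. Malat1 peaks had a median width of 690 bp (232 to 1999) and a median fold of 3.73 (2.83 to 4.74), and 8 of 10 were wider than the median of the list. Neat1 peaks had a median width of 272 bp (208 to 6850) and a median fold of 3.61 (3.01 to 4.93), and 3 of 10 were wider than that median. For 19 of the 20 the interval of the fold held the median fold of the list, as it did for 85.5% of all peaks. None of the 20 reached a fold of 5. The authors' -log10 q ran from 4.39 to 15.6 at Malat1 and from 6.27 to 18.98 at Neat1.

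The expected input level that the peak caller set against each summit also differed. At Malat1 it was above the genome background of 8.68 at 8 of 10 peaks, up to 12.2. At Neat1 it was above background at 3 of 10, among them the wide peak (10.97) and the peak with the highest level, 13.0. In the whole list 52.8% of peaks were above background. The part of local input in the number and width of these peaks was not tested. With peaks at background only, 2 were left at Malat1, which then covered 797 bp of it, and 7 at Neat1, covering 1072 bp.

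**Figure D3:**
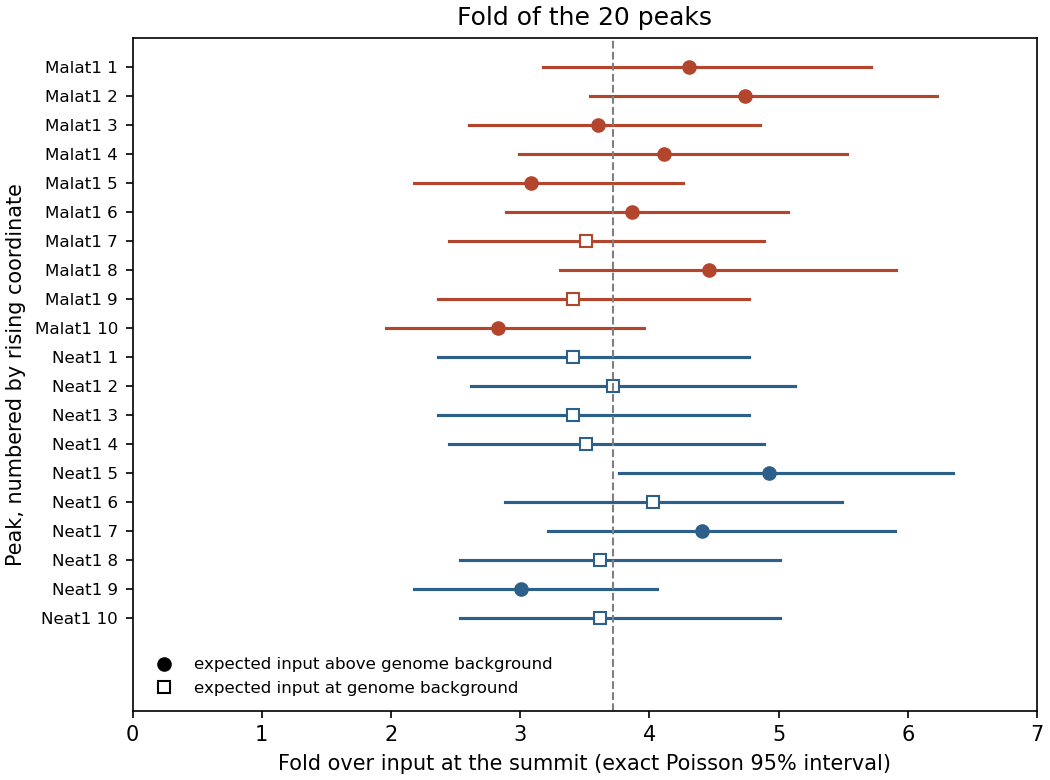
Points give the fold over input at the summit of each peak (x axis) and lines the exact Poisson 95% interval of counting error, with peaks numbered by rising coordinate in each gene (y axis). Open squares mark expected input at the genome background, and the dashed line is the median fold of the list, 3.72. The line of the wide Neat1 peak (Neat1 5) alone lies wholly to the right of it.

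The wide Neat1 peak was low for its width. Among the 10 widest peaks of the list, folds ran from 4.71 to 12.6 with a median of 7.19, and the Neat1 peak ranked 9 of 10. The only lower one was a peak of 5157 bp. Of the 373 peaks of 1 kb or more, which included 1 at Malat1 and 1 at Neat1, the median fold was 5.27. At least as high a fold as that of the Neat1 peak was found at 227 others, and as that of the Malat1 peak at 320 others.

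**Figure D4:**
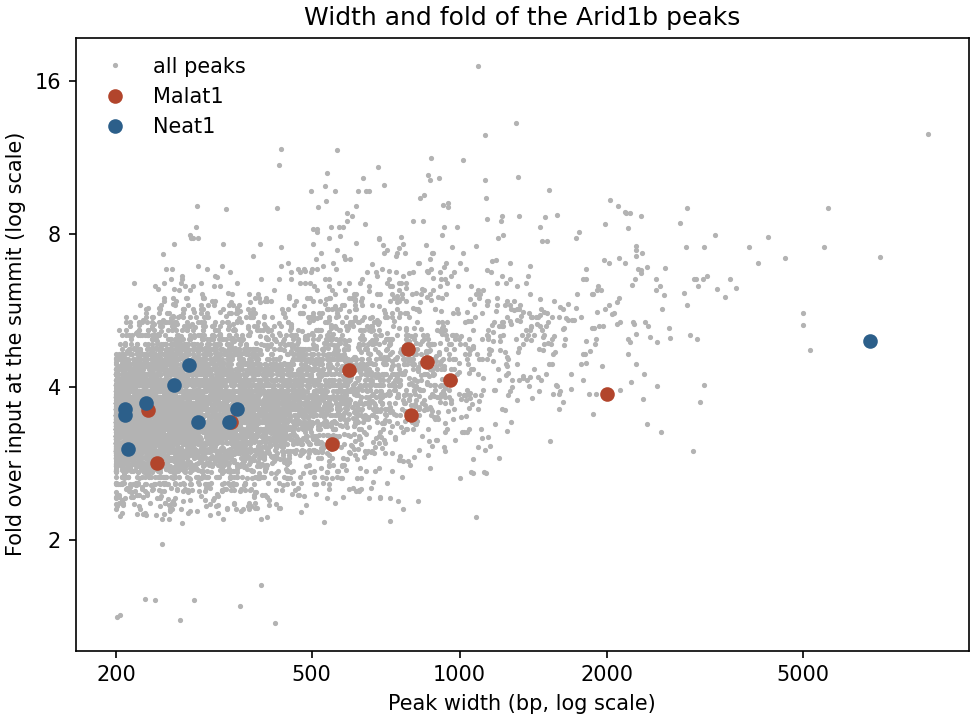
Each point is a peak, with its width in bp (x axis) and its fold over input at the summit (y axis), both on log scales. Grey points are all 8318 peaks, and the Neat1 peak of 6850 bp stands far to the right at a fold of 4.93, below most peaks of like width.

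Peaks at Malat1 and Neat1 formed runs. Joining peaks with gaps of up to 2 kb, a distance chosen after the positions were seen, gave a Malat1 run of 9 peaks over 10507 bp, chr19:5793743-5804249, of which 67.7% lay in peaks. Among 6030 runs it ranked 6 by number of peaks, 15 by bases in peaks and 14 by length. The run at the 5′ end of Neat1 had 7 peaks over 11163 bp, chr19:5839042-5850204, with 75.01% in peaks, and ranked 23 by number of peaks, 11 by bases in peaks and 10 by length. With gaps of up to 1 kb the Neat1 run was the same and ranked 12 of 6236 by number of peaks and 9 by bases in peaks. The Malat1 run broke into runs of 4 and 5 peaks. These ranked lower, 70 and 34 by number of peaks and 110 and 37 by bases in peaks.

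Few genes had as many peaks. In the table of 49943 genes, 19.5% (14.2% of the lncRNA genes) had at least 1 peak inside them or up to 10 kb away, and 35 genes (0.0701%) had 10 or more, Malat1 and Neat1 included. Of the 35, 22 were protein-coding, 11 were lncRNA genes (0.0864% of 12727) and 2 had other biotypes. Malat1 and Neat1 were chosen for these counts, so nothing is read from them.

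Malat1 and Neat1 were among the lower in height of those 35 genes and, of the 11 lncRNA genes, the farthest from protein-coding genes. Over the 35 genes the highest fold within 10 kb ran from 4.34 to 7.95, with a median of 5.76. A fold of 5 or more was found at 26 of them. Neat1 ranked 29 and Malat1 ranked 31 of 35. Of the 11 lncRNA genes, 9 others lay at most 1276 bp from a protein-coding gene or overlapped it. Neat1 lay 5494 bp from the nearest, Frmd8, and Malat1 was the only one of the 11 with none within 10 kb.

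**Figure D5:**
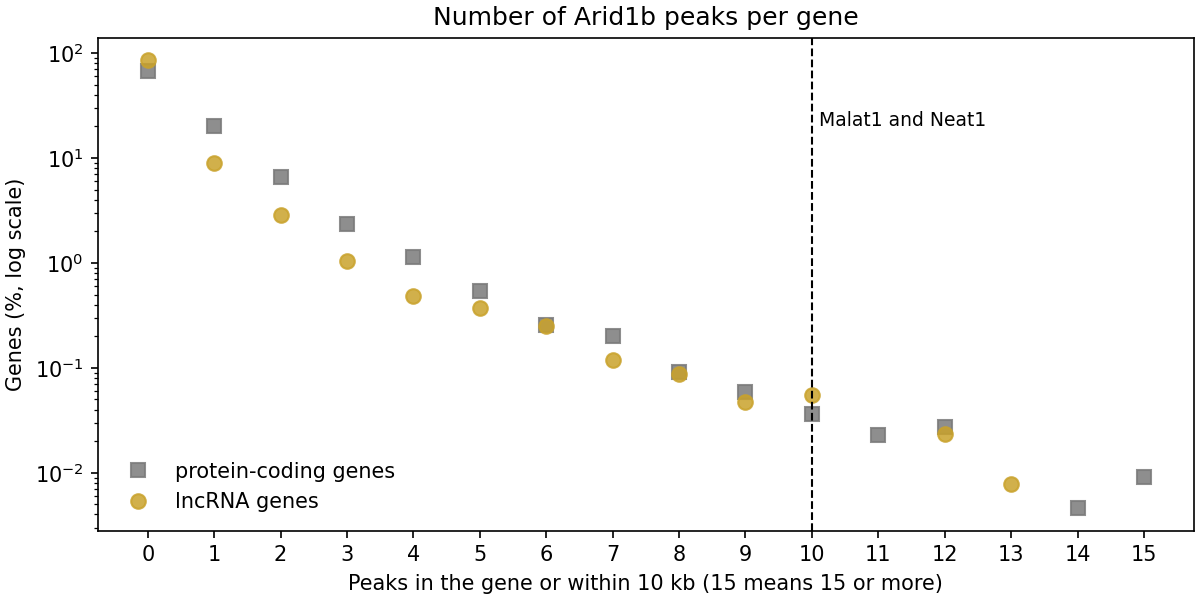
The x axis gives the number of peaks in a gene or within 10 kb and the y axis the percentage of genes on a log scale (grey squares, protein-coding; yellow circles, lncRNA). The dashed line marks the 10 peaks of Malat1 and of Neat1, a number that 35 of 49943 genes reached.

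Few lncRNA genes of their size had as large a share of the gene in peaks, which is again a description of genes chosen for their peaks. Of the 5498 lncRNA genes of 0.5 to 2 times the length of Malat1, 267 had a peak in the gene (5.78% of lncRNA genes of any length had one), with a median of 5.11% of the gene covered, and 3 others were covered to at least the share of Malat1. Of the 4266 of 0.5 to 2 times the length of Neat1, 234 had a peak in the gene, with a median of 1.79% covered, and 1 other was covered to at least the share of Neat1. No other lncRNA gene of any length had as many bases in peaks as Neat1, but 6 protein-coding genes did. Over all biotypes, 22 others of 12304 genes in the Malat1 length range were covered to at least its share. In the Neat1 length range it was 5 others of 12706 genes. Among lncRNA genes of any length, 16 others reached the share of Malat1 and 55 others that of Neat1.

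The genes most like Malat1 were taken as those of 0.5 to 2 times its length with 4 peaks in the gene and the nearest covered share. They were Irf2bp2 (60.8% covered), a gene for a corepressor, the transcription factor genes Sox4 (58.4%) and Isl2 (70.4%), the cyclin-dependent kinase inhibitor gene Cdkn1b (46.4%) and the lncRNA gene Evx1os (46.0%), out of 25 candidates. By the same measure with 5 peaks, the nearest to Neat1 included Pax9 (34.2%), a paired-box gene of tooth development, the lncRNA gene Chaserr (26.4%), and the transcription factor genes Sall3 (22.6%) and Pitx1 (22.2%), out of 14 candidates. For Irf2bp2 and Pax9 the share differed from that of the lncRNA gene by 0.827 and 0.675 percentage points. The likeness is in peak number and coverage of 1 list only.

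The genes around the pair had few peaks. On the Neat1 side the nearest peak outside the 10 kb limit was 48.3 kb from the gene, at chr19:5893822-5894028 in Tigd3, with 3.21. Frmd8 had no peak in the gene or within 1 kb of its annotated start site at 5875208. Its 3′ end was within 1 kb of the last of the upstream Neat1 peaks, chr19:5849852-5850204. Slc25a45 and Ltbp3 had no peak in the gene or within 1 kb of its ends, and Znrd2 had 1 near an end (3.85).

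Genes for proteins of paraspeckles, the bodies that Neat1 RNA builds, often had a peak within 1 kb of a gene end. Of 32 listed genes 21 (65.6%) had one, against 22.2% of all protein-coding genes. The median of their highest folds was 4.23, beside 3.92 over all protein-coding genes with such a peak. Among the highest were the RNA-binding protein genes Ewsr1 (7.61, 6.00 to 9.51) and Taf15 (6.20, 4.74 to 7.96). Tardbp, the gene for the RNA-binding protein TDP-43, reached 8.25 (6.72 to 10.0), Arid1b itself 6.41 (4.96 to 8.15) and Hnrnpk 5.50 (4.21 to 7.07).

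The core paraspeckle proteins were split. Sfpq had a peak of 4.40 (3.26 to 5.82) and Pspc1 one of 2.98 (2.11 to 4.09), whereas Nono, whose product pairs with both, had no peak in the gene or up to 10 kb away. Hnrnpa1 and Hnrnpm also had none there, and Hnrnpul1 had 2 peaks inside the gene, none within 1 kb of its annotated ends, although a start site of the promoter table lay within 1 kb of a peak. The BAF ATPase gene Smarca4, whose product is also found in paraspeckles, had 3.72 (2.62 to 5.13). None of the 32 had 10 or more peaks, the most being 6, and their widest peak within a gene was 946 bp.

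Genes for proteins of nuclear speckles or of Malat1 RNA processing gave a like count. Of 30 listed genes 18 (60%) had a peak near an end, against 22.2% of all protein-coding genes, and the median of their highest folds was 4.30, beside 3.92 over all protein-coding genes with such a peak. The highest were Hnrnpc (6.51, 5.01 to 8.31), U2af2 (6.40, 4.92 to 8.19), the kinase gene Cdk12 (5.99, 4.56 to 7.73), Rnps1 (5.58, 4.20 to 7.26), Snrnp70 (4.96, 3.67 to 6.56) and the SR splicing factor gene Srsf6 (4.85, 3.58 to 6.44). The peaks named for U2af2 (chr7:5080180-5080806) and Rnps1 (chr17:24426686-24427037) shared no base with their gene. Neither gene has a start site in the promoter table, so whether these peaks lie by its start was not tested. Srrm1 and Srsf4 had no peak within 10 kb. Srrm2 and Srsf1 had peaks only away from the annotated ends, and each of these had a start site of the promoter table within 1 kb of a peak. Elac2, the tRNA 3′ processing enzyme that also cuts mascRNA, had none within 10 kb.

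Among other well-studied lncRNA genes, 1 had as many peaks as Malat1 and Neat1. Of 39 listed noncoding genes 15 (38.5%) had a peak near an end, against 7.27% of all lncRNA genes, and the median of their highest folds was 4.23, beside 3.92 over all lncRNA genes with such a peak. The highest were Hottip in the Hoxa cluster (5.78, 4.38 to 7.496), Mir22hg (5.48, 4.23 to 6.99), Tug1 (5.16, 3.85 to 6.79), Oip5os1 (5.16, 3.85 to 6.79), Snhg6 (4.63, 3.42 to 6.15) and Epb41l4aos (4.44, 3.25 to 5.92). Xist, which silences an X chromosome, and the imprinted genes H19, Meg3 and Rian had no peak within 10 kb. Fendrr, a neighbour of Foxf1, had 10 peaks within 10 kb as the only one of the 39, and it was covered over 12.1% of its length. The largest share covered was 34.8%, at Snhg5, and the widest peak within a gene was 2510 bp, at Sox2ot. These lists hold genes chosen for known function, many of them active in most cells, and the counts were not tested.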

How the data were processed

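The deposited file is a peak list without a header, in mm10. The submitters' processing notes name Bowtie2 2.2.5, Picard, MACS2 2.1.1 and FastQC 0.11.8 with no role or setting for any. Depth, filters and treatment of duplicates were not given in the sources used here, and the peak names pair 1 ChIP with 1 input library. For each peak the authors deposited a linear fold (ratio) over input, the -log10 of a p-value and of a q-value, and a score, which equals 10 times the -log10 p without decimals and was not used.

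A peak was counted where at least 1 base lay in the gene or within 10 kb. Genes, start sites and sequence came from RefSeq tables of GRCm38.p6, the assembly of mm10, in which all 101 listed genes were found. The pileup and expected level at each summit were solved from the deposited fold and p-value (largest error 0.000162 in -log10 p), on the premise that MACS2 adds 1 to both before it divides them and that p is the Poisson chance of a higher pileup. Intervals hold the expected level fixed. Code (Python 3.11.15) was tested on simulated peaks.

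The members, lists and alternatives were chosen with earlier results of these data known. Named were genes within 10 kb, the 3 nearest protein-coding genes on each side, the 5 likest genes, and in each list the 6 highest and the first 4 without a peak. Others were named after their values were seen. Some genes under this rule are not reported here.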

Additional observations from a re-analysis of the deposited data

How the results depend on the processing

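The highest fold at Neat1 was 4.93 inside the gene alone and with a window of 25 kb. Its strongest peak lies in the gene, so the smaller window could not lower it. At Malat1 the highest fold was 4.11 inside the gene and 4.74 with a window of 25 kb, a move smaller than the counting interval. The windows are nested, so this says little on stability. Inside the gene alone, Malat1 had 4 peaks and Neat1 5. With intervals closer than 500 bp merged there were 4 at Malat1 and 6 at Neat1. At a -log10 q of at least 10 there were 5 and 2, and 12 paraspeckle and 10 nuclear speckle genes had a peak near an end. At a fold of at least 5 no peak was left at Malat1 (0) or Neat1 (0) and 0 bases of Malat1 and 0 of Neat1 were covered, with 7 paraspeckle, 4 nuclear speckle and 4 lncRNA list genes. With expected input at background, 2 peaks and 797 bases remained at Malat1 and 1072 bases at Neat1, with 8 paraspeckle and 10 nuclear speckle genes. Shares over all genes were not computed under these stricter settings, so the list counts there have no background to be read against. The other alternatives kept counts within 1.5 times. The largest rise was to 15 peaks at Neat1 with a window of 25 kb. That window reaches into Malat1, and the added peaks were ones already counted there. Counting start sites of the promoter table in place of gene ends was an alternative added after the data were seen. Not all listed genes have a start site there. Of those that do, 22 of 30 paraspeckle, 19 of 27 nuclear speckle and 10 of 26 lncRNA list genes had a peak. The share over all genes by this rule was not computed. No paired analysis was possible because each group has 1 library. A pileup of 32 to 58 fragments limits the ordering of peaks by height.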

Other observations

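The promoter window of Malat1 had a GC content of 47.0%, low for a window that an Arid1b peak reached. Over all 32851 windows the median was 52.7%, and over the 2946 reached by a peak it was 66.3%. A GC content at or under that of Malat1 was found in 29.7% of all windows and in 2.51% of those reached. The GC box GGGCGG, which had no match at Malat1, was present in 74% of the windows reached. The comparison was chosen after the sequence was seen and is given as a description.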
